A study of Mus musculus with 9 samples.

Results

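The genes described here are those of the cytoplasmic ribosomal proteins, in C2C12 cells. They were all protein-coding genes whose mouse symbol has the form used for these proteins (Rpl or Rps with a number, Rplp0 to Rplp2, Rpsa) and whose counts averaged at least 1 CPM (counts scaled to library size) over the 9 libraries. Of 84 protein-coding genes with such a symbol, 81 met the minimum, out of 47728 genes listed per library. The 3 that did not were the paralogues Rpl3l, Rpl10l and Rpl39l. C2C12 is a mouse myoblast line whose cells stop dividing and fuse to multinucleated myotubes on serum withdrawal. The study compared an Fkbp5 knockdown, an Fkbp4 knockdown and a Control labelled Neg in the sample titles, each collected at day 0, when cells grown in 10% fetal bovine serum were moved to 1% insulin-transferrin-selenium, and at days 3 and 5, with 1 library per genotype and day. The labels do not give the method of knockdown, whether the cells are 1 clone, or further alleles, and they name a medium with HS, not spelled out, for later changes.

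A mammalian ribosome joins a large and a small subunit, and each is built in the nucleolus from ribosomal RNA and from proteins made in near-equal numbers. Large-subunit proteins carry the prefix Rpl and small-subunit proteins Rps. Rplp0, Rplp1 and Rplp2 form the stalk that recruits elongation factors, Rpl5 and Rpl11 travel with the 5S ribosomal RNA and can bind the p53 regulator Mdm2, and Rps6 is the target of the S6 kinases. Most of the messenger RNAs start with a C followed by a run of pyrimidines, the terminal oligopyrimidine (TOP) motif, through which the kinase complex mTORC1 controls their translation. Ribosomal protein genes have also left many processed pseudogenes in the mouse genome, so that reads of a gene can match its copies equally well.

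Start windows from RefSeq (GRCm38.p6) were searched for a C-led pyrimidine run near the annotated start, which is a looser pattern than the motif. A run was counted from a C within 10 bases of the start, whatever base stood before that C. It could thus be part of a longer pyrimidine stretch that began further away or with T. Pyrimidines directly before that C are in small letters in the lines below. Whether an annotated start is the first base of the message was not tested. Windows were found for 61 of the 81 genes, some with several starts. Of these genes, 36 (59.0%) had such a run of at least 5 bases, counted from the C, against 33.3% of all 27025 genes with a window. A run of at least 8 bases, a length chosen after the windows were seen, was found in 39.3% and 9.09%. Each line gives 30 bases of the sense strand around the start, with the run in capitals, for genes that fell strongly with differentiation (Rpl12, Rps6, Rplp0), that differed between the knockdowns (Rpl22l1, Rps15a, Rpl35, Rps13), and that fell little or not at all (Rpl28, Rpl38, Rpl41). They were chosen after their values were seen, to show windows with and without a run.
Rpl12 (chr2:32961697-32961726, plus strand): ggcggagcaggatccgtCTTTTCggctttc
Rps6 (chr4:86857353-86857382, minus strand): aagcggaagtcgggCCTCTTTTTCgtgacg
Rpl22l1 (chr3:28805493-28805522, plus strand): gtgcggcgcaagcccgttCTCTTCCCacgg
Rps15a (chr7:118116133-118116162, minus strand): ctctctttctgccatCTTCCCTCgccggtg
Rpl35 (chr2:39005117-39005146, minus strand): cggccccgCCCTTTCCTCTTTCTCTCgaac
Rpl28 (chr7:4792950-4792979, plus strand): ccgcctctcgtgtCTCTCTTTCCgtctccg
Rpl38 (chr11:114668565-114668594, plus strand): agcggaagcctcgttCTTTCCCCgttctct
Rplp0 (chr5:115559452-115559481, plus strand): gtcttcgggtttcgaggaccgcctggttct
Rps13 (chr7:116334176-116334205, minus strand): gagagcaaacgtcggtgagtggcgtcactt
Rpl41 (chr10:128549154-128549183, minus strand): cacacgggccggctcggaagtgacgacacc
Genes with and without the run were found at both ends of the response. The median log2 fold change between day 5 and day 0 was −1.04 over the 36 genes with the run and −0.90 over the 25 without it, a difference that was not tested. Over the whole window of 300 bases, from 250 before to 50 after the start, the letters CCGGAAG (the core bound by GABPA) occurred on either strand in 41.0% of the 61 genes and 9.93% of all genes, and AAGATGG (the core bound by YY1) in 16.4% and 7.28%. TATAAA on the sense strand from 40 to 20 bases before the start was found in 1.64% and 2.41%. These are matches of letters in a window and no evidence of binding.

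Total counts ranged from 3932372 to 5568486 per library, and counts are given below as normalised CPM, which are CPM after scaling by TMM. Fkbp5 had 4.47, 3.18 and 4.61 normalised CPM at days 0, 3 and 5 in the Fkbp5 knockdown, against 20.1, 7.34 and 14.8 for the Control (log2 fold change −1.72, adjusted p = 0.00825, and 0.0536 on omitting the day 5 library of that knockdown). Fkbp4 had 60.2, 27.0 and 24.0 normalised CPM in the Fkbp4 knockdown and 240.6, 143 and 138 in the Control (−2.28, adjusted p = 1.90e-05). The summed level of 6 myotube markers lay between 67.6 and 11510 normalised CPM across the libraries, and the myoblast marker Myod1 was between 67.9 and 121, whereas Pax7 was at most 2.63. Among markers of other lineages, Adipoq, Plin1, Acan, Cdh5 and Snap25 had no reads, whereas Tubb3, listed as neural, had 118 to 221 normalised CPM, Runx2, listed for bone, 23.2 to 44.5, Pparg 4.43 to 13.4 and Cd68 0.726 to 3.76. The Fkbp5 knockdown day 5 library stood apart in holding 10.1% of its reads on mitochondrially encoded genes, against 1.78% to 5.01% in the other libraries.

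Ribosomal protein transcripts made up a large part of the messenger RNA and took a smaller share of it as the cells differentiated. At days 0, 3 and 5 the 81 genes held 10.1%, 5.29% and 4.44% of the reads in the Fkbp5 knockdown, 7.23%, 4.70% and 3.93% in the Fkbp4 knockdown, and 8.60%, 5.504% and 4.24% in the Control. The day 0 library had the highest share in every genotype, and the day 0 libraries of the genotypes lay further apart than those of day 5. Exact 95% binomial intervals (10.1% to 10.2% for the Fkbp5 knockdown at day 0, the widest) cover counting error only. The values are relative to all other messenger RNA in the library, so that fewer ribosomal protein transcripts per cell and more of other transcripts cannot be told apart, nor can fewer cells of a type and less RNA per cell.

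**Figure D1:**
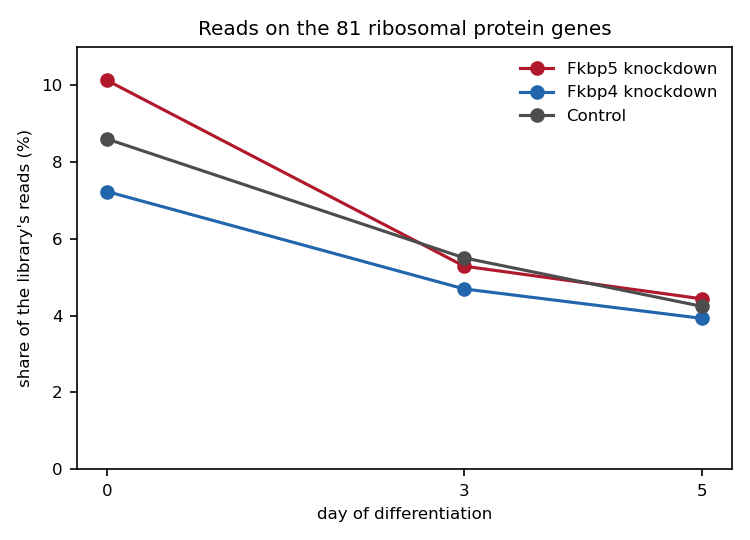
Share of each library's reads that fell on the 81 ribosomal protein genes (vertical axis, percent, from 0) at days 0, 3 and 5 (horizontal axis) in the Fkbp5 knockdown, the Fkbp4 knockdown and the Control, 1 library per point. Every genotype has its highest share at day 0, from 7.23% to 10.1%, and its lowest at day 5, from 3.93% to 4.44%.

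Single genes differed widely in level. Set per kilobase of coding sequence, the highest mean levels over the 9 libraries were those of Rpl41 (6706 CPM per kilobase), Rpl39 (3774) and Rplp1 (3700.3), small proteins of the large subunit. Their coding sequences are short, and untranslated bases, which also collect reads, are left out of this scale. The lowest were Rpl29 (3.21), Rpl21 (15.8) and Rps23 (31.7), whose proteins are core parts of the ribosome. Of the reads on each of these 3 genes and its copies together, 96.9%, 66.8% and 93.9% were counted on pseudogenes, so their low level is that of the reads assigned to the gene. Rplp0 had the highest level per gene, with a mean of 3143 normalised CPM.

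Nearly every ribosomal protein transcript fell with differentiation, and most of the change was present by day 3. Between day 0 and day 3, 70 of 80 genes tested fell and none rose at an adjusted p under 0.05, where 26.1% of all 12498 genes tested fell. The test was edgeR's quasi-likelihood test over the 9 libraries with genotype and day as additive terms and Benjamini-Hochberg adjustment over all genes, and it gives the change common to the 3 genotypes. In 59 of the 80 genes all 3 day 3 libraries lay below all 3 day 0 libraries, as in 26.3% of all genes. By day 5, 77 of 80 had fallen from day 0, against 28.8% of all genes. The median log2 fold change of the 80 genes was −0.70 at day 3 and −0.98 at day 5, beside a median within 0.01 of 0 over all genes tested. At day 5, 37 genes stood at −1 or lower, that is at or below 50% of their day 0 level, against 11.1% of all genes. Rpl29 had too few reads to be tested.

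Genes of both subunits fell. At day 5 the median over the 48 large-subunit genes was −0.92 and that over the 32 small-subunit genes −1.04, with 47 and 30 genes lower. The change was seen in each genotype taken alone: comparing single libraries, the median difference between day 5 and day 0 was −1.09 in the Fkbp5 knockdown, −0.78 in the Fkbp4 knockdown and −0.99 in the Control, with 78, 77 and 79 of the 80 genes lower. In 70 of the 80 genes all 3 day 5 libraries lay below all 3 day 0 libraries, a pattern shown by 28.3% of all genes. Most of these transcripts are short, with a median of 681 bases against 2854 over the protein-coding genes tested, and short transcripts as a class also moved with the day. Other genes with transcripts of up to 600 bases had a median of −0.14 at day 5 against day 0, and those of over 600 and up to 1000 bases −0.17. After the trend with transcript length was removed, an alternative chosen after seeing the data, the median of the ribosomal protein genes was −0.72 at day 5 and 73 were lower.

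**Figure D2:**
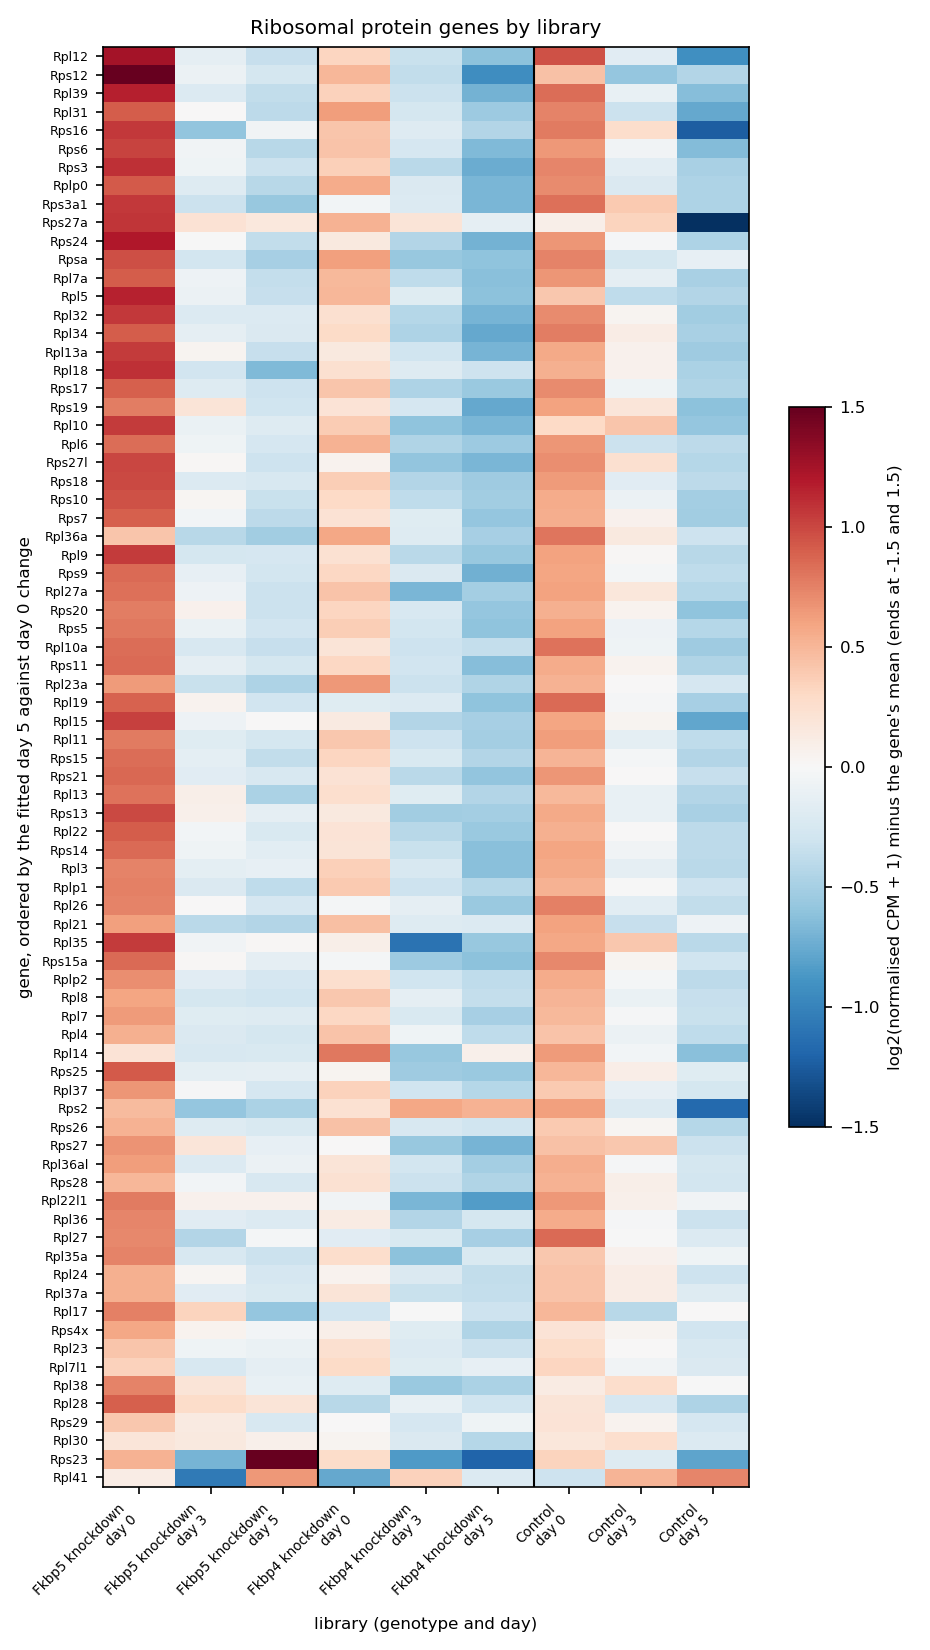
Level of each of 78 of the 80 tested ribosomal protein genes (rows, ordered by the fitted change between day 5 and day 0, largest fall on top) in the 9 libraries (columns, by genotype and day), as log2(normalised CPM + 1) minus the mean of the gene. The day 0 column of each genotype is the reddest for nearly all rows, and the Rps23 and Rpl41 rows at the bottom depart from the rest.

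The largest fall at day 5 was that of Rpl12, a protein at the base of the stalk. It had, at days 0, 3 and 5, 2662, 1024 and 879 normalised CPM in the Fkbp5 knockdown, 1406, 889 and 729.7 in the Fkbp4 knockdown and 2181, 994 and 592 in the Control. The day 0 libraries were the highest of every genotype and did not overlap with those of day 5, a log2 fold change of −1.48 (SE 0.17, adjusted p = 3.07e-05). Rplp0, the stalk protein that Rpl12 sits beside, had 5536, 2545 and 2181 normalised CPM in the Fkbp5 knockdown, 4305, 2509 and 1812 in the Fkbp4 knockdown and 4764, 2508 and 2124 in the Control. Its change at day 5 was −1.25 (SE 0.11, adjusted p = 4.13e-06). Rplp1 and Rplp2, the acidic partners on the same stalk, fell by less (−0.93 and −0.85), although the difference between stalk proteins was not tested.

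Among the other genes with the largest falls were Rpl39 (−1.36) and Rpl31 (−1.33), which lie around the exit of the peptide tunnel, and Rps3 (−1.26), a protein at the entry of the messenger RNA channel. Rps6, the S6 kinase target, had 2218, 1059 and 824 normalised CPM in the Fkbp5 knockdown, 1479, 923 and 698 in the Fkbp4 knockdown and 1736, 1064 and 702 in the Control. It was lower on day 3 than on day 0 and lower again on day 5 in every genotype, with −1.28 (SE 0.12, adjusted p = 5.67e-06) between days 0 and 5. Rpl5 and Rpl11, the partners of the 5S RNA, changed by −1.15 and −0.99 at day 5, both with an adjusted p under 0.05. Rpsa, a small-subunit protein also known as the laminin receptor precursor, had 2252, 949.6 and 817 normalised CPM in the Fkbp5 knockdown, 1757, 773 and 759 in the Fkbp4 knockdown and 1925, 961 and 1052 in the Control. Almost all of its change was reached by day 3 (−1.15), with −1.18 at day 5.

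Day 3 had its own order of change. Among the largest falls that passed by then were those of Rps12 (−1.25), Rpsa, Rpl12 (−1.07) and Rpl39, and also Rpl21 (−0.97), Rpl31 (−0.96), Rpl6 (−0.95), Rps3 (−0.94) and Rplp0 (−0.94). Among the 10 genes that did not pass at day 3 were Rpl17, Rpl28, Rpl30, Rpl38, Rpl41, Rps2, Rps23, Rps27a and Rps29. At the other end of the order, Rpl30 had 376, 365 and 348 normalised CPM in the Fkbp5 knockdown, 339, 283 and 245 in the Fkbp4 knockdown and 373, 395 and 286 in the Control. Its days overlapped in the libraries of day 0 and day 3, and its change at day 5 was −0.32 (SE 0.11, adjusted p = 0.028). Rps29 (−0.38), Rpl28 (−0.43) and Rpl38 (−0.43) also had small falls that passed at day 5.

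**Figure D3:**
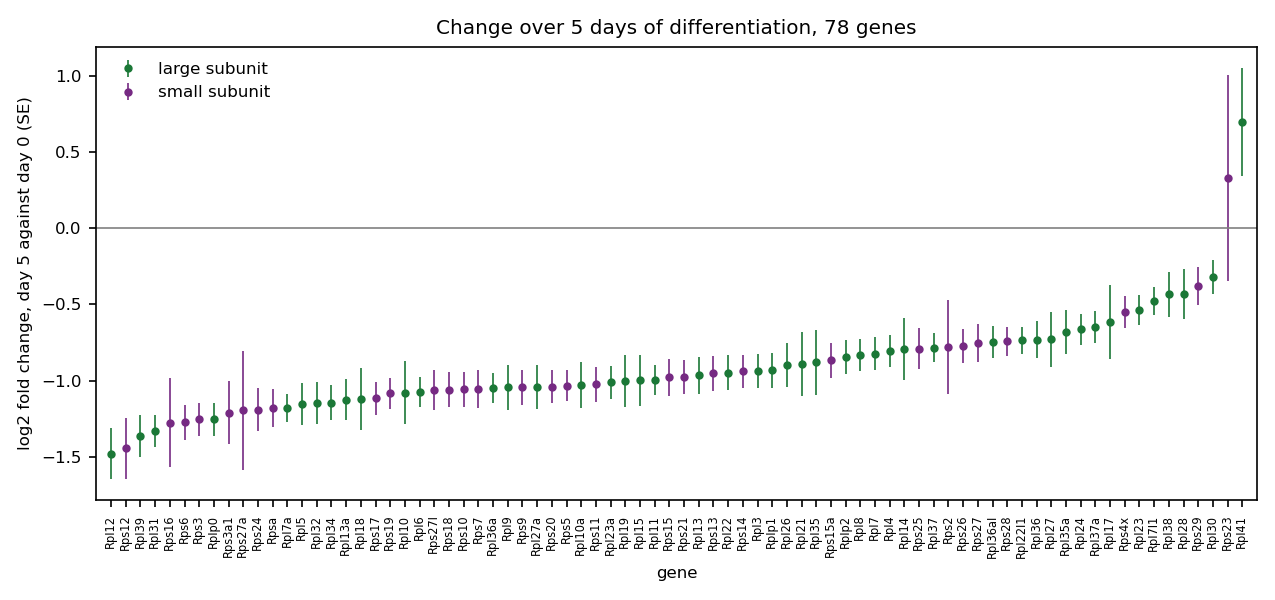
Fitted log2 fold change between day 5 and day 0 (vertical axis) with its standard error (bars) for 78 of the 80 tested genes (horizontal axis, ordered), coloured by subunit. All genes drawn but Rps23 and Rpl41 lie below 0, from −0.32 (Rpl30) to −1.48 (Rpl12).

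The 3 genes that did not pass at day 5 were Rps2 (−0.78, adjusted p = 0.0501), Rps23 (0.33, adjusted p = 0.699) and Rpl41 (0.70, adjusted p = 0.115), all with many reads on copies. From day 3 to day 5, 3 of 80 genes fell, where 2.40% of all genes did, and the median of the 80 was −0.23. In 24 genes all 3 day 5 libraries lay below all 3 day 3 libraries, as in 8.99% of all genes. Rps19, a small-subunit protein mutated in Diamond-Blackfan anaemia, had 849, 569 and 405 normalised CPM in the Fkbp5 knockdown, 575, 419 and 293 in the Fkbp4 knockdown and 757, 567 and 326 in the Control. Its day 5 libraries lay below those of day 3 in each genotype, with −0.60 (SE 0.10, adjusted p = 0.00846). Rps20 (−0.46) and Rps6 (−0.46) also passed. The number of genes that fell between these days was 0 when either the Control day 3 or the Control day 5 library was left out, whereas omitting day 3 of the Fkbp5 knockdown gave 9 and omitting its day 0 gave 5. Omitting day 5 of the Fkbp5 knockdown, day 3 or day 5 of the Fkbp4 knockdown, or day 0 of the Control gave 1.

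In the Fkbp5 knockdown no ribosomal protein transcript passed the test against the Control. With edgeR's quasi-likelihood test 0 of 80 genes were called, where 2.18% of all genes were called in either direction. At an unadjusted p under 0.05 there were 7 of the 80 genes and 1985 of all 12498 genes tested. DESeq2 called 3 of the 80 and limma-voom 0, with no share over all genes given for these tools. The median log2 fold change was 0.10 and 65 of 80 values were above 0, but the direction varied by day. The median within a day was 0.24 at day 0, −0.11 at day 3 and 0.14 at day 5. Rpl28, a large-subunit protein, had 512, 332 and 314 normalised CPM in the Fkbp5 knockdown, 205, 254 and 223 in the Fkbp4 knockdown and 314, 231 and 199 in the Control. It was higher in the Fkbp5 knockdown on every day, with 0.63 (SE 0.16, adjusted p = 0.0827), the lowest adjusted p among the 80 genes. In 18 of 80 genes the Fkbp5 knockdown library was above the Control library on all 3 days, a pattern shown by 17.9% of all genes.

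In the Fkbp4 knockdown 1 transcript was lower than in the Control, that of Rpl22l1, the paralogue of the RNA-binding large-subunit protein Rpl22. This is 1 of 80 genes tested, where 0.824% of all genes fell, and none rose. Rpl22l1 had 318, 194 and 195 normalised CPM in the Fkbp5 knockdown, 179, 115 and 103 in the Fkbp4 knockdown and 292, 196 and 179 in the Control. On each day the Fkbp4 knockdown library was the lowest and the other 2 lay close together, giving −0.75 (SE 0.09, adjusted p = 0.00741). The call was lost without the Fkbp4 knockdown day 3, the Fkbp4 knockdown day 5 or the Control day 3 library, with log2 fold changes of −0.77, −0.73 and −0.73 and adjusted p of 0.0541, 0.0535 and 0.0657. Omitting day 0 of the Fkbp5 knockdown gave 6 lower genes, omitting its day 3 gave 4, and omitting day 0 of the Fkbp4 knockdown gave Rpl22l1 and 1 gene that was higher. Both knockdowns were set against the same Control libraries.

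Many further ribosomal protein genes were slightly lower in the Fkbp4 knockdown without passing. The median was −0.24, beside 0.02 over all genes, and 74 of 80 values were below 0. The median within a day was −0.29, −0.27 and −0.16 at days 0, 3 and 5. DESeq2 called 7 genes lower and limma-voom 3. Shares of all genes called lower by these tools are not given, so these counts cannot be set against them. In 54 of 80 genes the Fkbp4 knockdown library was below the Control library on all 3 days, a pattern shown by 21.1% of all genes. Next to the threshold were Rps15a, a small-subunit core protein (−0.55, adjusted p = 0.0509), Rps27 (−0.60, adjusted p = 0.0562) and its paralogue Rps27l (−0.59, adjusted p = 0.0699).

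This shift went with transcript length. The 755 other genes with transcripts under 1000 bases had medians of −0.19, −0.25 and −0.10 in the Fkbp4 knockdown against the Control at days 0, 3 and 5, and of 0.13, −0.13 and 0.13 in the Fkbp5 knockdown. On every day the sign was that of the ribosomal protein genes. With the length trend removed, the median of the 80 genes was 0.06 for the Fkbp5 knockdown against the Control and −0.03 for the Fkbp4 knockdown against it. Rpl22l1 still passed, at −0.50 (adjusted p = 0.0198). Whether the length trend comes from the RNA, the library or the cells was not tested.

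**Figure D4:**
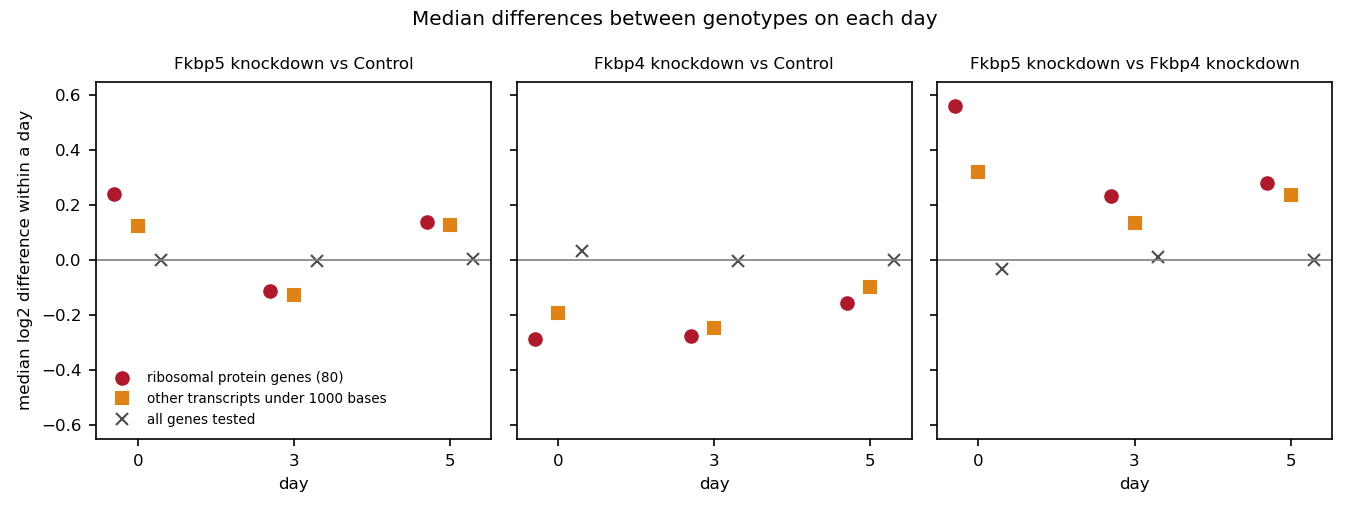
Median log2 difference within a day (vertical axis) between genotypes at days 0, 3 and 5 (horizontal axis) for the 80 tested ribosomal protein genes (circles), 755 other genes with transcripts under 1000 bases (squares) and all genes tested (crosses), 1 panel per comparison. The circles and squares have the same sign in all 9 positions, and the circles reach 0.56 in the Fkbp5 knockdown against the Fkbp4 knockdown at day 0.

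The clearest genotype contrast was between the knockdowns, set directly against each other. In the Fkbp5 knockdown 25 of 80 genes were higher than in the Fkbp4 knockdown and none lower, where 7.16% of all genes were higher. The median was 0.34, beside −0.01 over all genes, and 0.56, 0.24 and 0.28 within days 0, 3 and 5. Of the 25 genes, 11 belong to the large subunit and 14 to the small one. In 62 of 80 genes the Fkbp5 knockdown library was the higher one on all 3 days, against 23.5% of all genes. The ribosomal protein genes moved with short transcripts here too, whose medians were 0.32, 0.14 and 0.24. With the length trend removed 7 of the 80 genes were higher and 1 lower, with a median of 0.11. The share of all genes called with the trend removed is not given, so whether 7 of 80 exceeds it cannot be told.

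Rpl22l1, whose levels are given above, differed by 0.83 (SE 0.09, adjusted p = 0.000669), with the Fkbp5 knockdown higher on all 3 days. Rpl35, a protein at the tunnel exit that shares 88.8% of its sequence words with other transcripts, had 773, 361 and 377 normalised CPM in the Fkbp5 knockdown, 395, 172 and 252 in the Fkbp4 knockdown and 557, 496 and 281 in the Control. The gap was widest at days 0 and 3, with 0.86 (SE 0.21, adjusted p = 0.0261). Rps12 differed by 0.74, Rpl28 by 0.72 and Rpl38, whose loss in mice alters the skeleton, by 0.69. Rps27 (0.66), Rps27l (0.66), Rps15a (0.64), Rps24 (0.61) and Rps13 (0.60) complete the 10 largest differences that passed. Rps15a had 856, 477 and 433 normalised CPM in the Fkbp5 knockdown, 464, 323 and 308 in the Fkbp4 knockdown and 780.4, 488 and 384 in the Control. It was lowest in the Fkbp4 knockdown on every day, and its adjusted p was 0.00618.

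The count of 25 rested on the libraries used. Omitting day 3 of the Fkbp5 knockdown gave 38, and omitting its day 0 or day 5 gave 7 each. Omitting day 0 of the Fkbp4 knockdown gave 6 (5 higher and 1 lower), its day 3 gave 7 and its day 5 gave 9. Rpl22l1, Rps13 and Rps15a were higher in the Fkbp5 knockdown with the length trend removed (log2 fold changes of 0.55, 0.33 and 0.38). The markers of differentiation also differed between these libraries. Myh3, an embryonic myosin, had 10.0, 892 and 1807 normalised CPM at days 0, 3 and 5 of the Fkbp5 knockdown, against 45.7, 1748 and 3822 in the Fkbp4 knockdown (−1.36, adjusted p = 0.00688). Myog, the myogenic transcription factor, had 11.3, 152 and 238 in the Fkbp5 knockdown, against 31.5, 323 and 248 in the Fkbp4 knockdown (−0.78, adjusted p = 0.0700). The part of differentiation state in the ribosomal protein difference was not tested.

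Whether a knockdown altered the response to differentiation was tested as an interaction between the knockdown and the late days, with 2 residual degrees of freedom. With edgeR's test 0 of 80 genes were called for the Fkbp5 knockdown and 0 for the Fkbp4 knockdown, where 0.032% and 0.04% of all genes were called. At an unadjusted p under 0.05 there were 4 and 6 of the 80 genes, and 573 and 386 of all 12498 genes tested. DESeq2 called 0 and 1, and limma-voom 0 and 0. For the Fkbp5 knockdown the median was −0.19 with 68 of 80 values below 0, against 0.01 and 49.2% over all genes. Other transcripts of up to 600 bases had −0.17 there. For the Fkbp4 knockdown the median was 0.07 with 28 of 80 below 0, against −0.03 and 54.4%. With so few degrees of freedom, 0 calls do not show that the genotypes responded alike.

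Rpl22l1, Rps27l, Rpl36al and Rpl7l1, the paralogues with enough reads to be tested, and their partners fell by day 5. Rpl22l1 held 26.4%, 29.9% and 32.7% of the reads of the pair Rpl22l1 and Rpl22 at days 0, 3 and 5 in the Fkbp5 knockdown, 24.9%, 24.6% and 24.5% in the Fkbp4 knockdown, and 30.02%, 29.2% and 33.3% in the Control. In the Fkbp4 knockdown the share was the lowest on each day. Exact 95% binomial intervals, which hold counting error of 1 library each, were 25.1% to 27.7% for the Fkbp5 knockdown and 23.5% to 26.3% for the Fkbp4 knockdown at day 0 and so overlapped. Rpl22 itself was lower in the Fkbp4 knockdown without passing the test (−0.31, adjusted p = 0.218). The change by day 5 was −0.74 for Rpl22l1 and −0.95 for Rpl22, both called.

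Rps27l, a p53-responsive paralogue of Rps27, held 39.0%, 31.2% and 30.9% of the reads of its pair at days 0, 3 and 5 in the Fkbp5 knockdown, 34.3%, 33.3% and 33.8% in the Fkbp4 knockdown, and 37.9%, 31.3% and 32.1% in the Control. Its change by day 5 (−1.06) was larger than that of Rps27 (−0.75), a difference that was not tested. Rpl36al, a paralogue of Rpl36a, held between 40.5% and 54.5% of the reads of its pair at days 0, 3 and 5. Its share was 50.5%, 50.7% and 54.5% in the Fkbp5 knockdown, 40.5%, 45.6% and 46.9% in the Fkbp4 knockdown, and 42.6%, 44.2% and 47.8% in the Control. The Fkbp5 knockdown was the highest on each day. Rpl36a itself had 456, 255 and 237 normalised CPM in the Fkbp5 knockdown, 508, 299 and 240.3 in the Fkbp4 knockdown and 596, 376 and 274 in the Control. The Fkbp5 knockdown lay below the Control on every day, with −0.38 (SE 0.10, adjusted p = 0.0838), 1 of 15 genes with a value below 0 in this comparison.

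Rpl7l1, a paralogue of Rpl7 found in precursors of the large subunit, held between 9.63% and 14.4% of the reads of its pair. Its change by day 5 was −0.48, against −0.82 for Rpl7, and its differences in the knockdowns from the Control were −0.03 for Fkbp5 and −0.03 for Fkbp4. Paralogues known from differentiated muscle or testis stayed near 0 reads. Rpl3l, the form of Rpl3 that replaces it in adult skeletal muscle and heart, had 1, 4 and 1 reads at days 0, 3 and 5 in the Fkbp5 knockdown, 0, 2 and 2 in the Fkbp4 knockdown, and 3, 3 and 4 in the Control. Rpl3 itself had 9957, 6206 and 6573 reads in the Fkbp5 knockdown, 9981, 7474 and 4807 in the Fkbp4 knockdown, and 10543, 6019 and 4891 in the Control. Rpl10l had at most 2 reads and Rpl39l at most 1 in a library, where a count of 0 allows up to 0.539 to 0.763 CPM. Rps4l is annotated as a pseudogene and was left out.

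Reads shared with pseudogenes set a limit on single genes. Of the sequence words of 31 bases in the transcripts, a median of 27.6% per gene also occur in other annotated transcripts, and 56 of the 81 genes share over 20%. Rpl36 (94.0%), Rpl35 (88.8%) and Rpl23a share most. These shares count transcripts of every kind. Counting pseudogenes alone, Rpl36, Rps3a1 (76.9%) and Rpl19 (58.2%) share most, with 52.3% for Rpl23a and 25.7% for Rpl35. Matched pseudogenes numbered 1494, of which 1074 had reads, and they held 10.2% of the reads on genes and copies together. Whether a read that fits several places was counted on 1 of them or dropped is not given in the sources used here. Among the 25 genes that share at most 20%, all 25 fell by day 3 and by day 5, 10 were higher in the Fkbp5 knockdown than in the Fkbp4 knockdown, and Rpl22l1 was lower in the Fkbp4 knockdown than in the Control. These counts are from the fit over all genes, and 2 genes passed in that last comparison when the other members were left out of the fit. The share pools the words of all annotated transcripts of a gene, so a low share does not mean few reads on copies. In this group, copies held 66.8% of the reads of Rpl21 and its copies, and 32.2% for Rps15a. The group therefore cannot show what the counts would be without reads on copies.

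For some genes the split of reads between the gene and its copies differed from library to library. Whether reads passed from one to the other was not tested. Among 153 copies with at least 200 reads in all, 23 had under 3 normalised CPM in 1 library and over 50 in another. Rps23, a core protein of the decoding centre, had 13.4, 5.22 and 60.1 normalised CPM in the Fkbp5 knockdown, 11.2, 4.59 and 3.37 in the Fkbp4 knockdown and 11.7, 7.81 and 4.84 in the Control. Its copies together had 340.3, 215 and 162 normalised CPM in the Fkbp5 knockdown, 157, 129 and 127 in the Fkbp4 knockdown, and 372, 238 and 169 in the Control. The copy Gm15464, on chromosome 1, had 0.263, 0.454 and 24.1 normalised CPM in the Fkbp5 knockdown, at most 0.211 for the Fkbp4 knockdown, and 291, 121 and 160.2 in Control cells. The copy Gm17786, on chromosome 8, ran the other way, with 232, 158 and 98.0 in the Fkbp5 knockdown, 123, 75.6 and 91.1 in the Fkbp4 knockdown and 54.1, 47.6 and 2.90 in the Control.
The start of the coding sequence, from its second to its 31st base in GENCODE release 21 transcripts, is given for the gene and 3 copies, with bases that differ from Rps23 in capitals.
Rps23 (chromosome 13): tgggcaagtgtcgtggtctccgaactgccc
Gm15464 (chromosome 1): tgggcaagtgtcgtggtctccgaactgccc
Gm17786 (chromosome 8): tgggcaagtgtcTtggtctcTgaactgccT
Gm16570 (chromosome 12): tgAAcaagtgCTgtggtctccgTactAccT
Over the whole coding sequence of 429 bases, Gm15464 differed from Rps23 at 8 of 428 aligned bases, Gm17786 at 13 of 424 and Gm16570 at 52 of 424. Gm16570 had 97.1, 51.1 and 36.4 normalised CPM in the Fkbp5 knockdown, 28.7, 50.5 and 32.3 in the Fkbp4 knockdown and 18.3, 3.08 and 1.21 in the Control. With the reads of copies added to the gene, Rps23 fell at day 5 (−0.74, adjusted p = 0.000388), which the gene's own reads did not show (0.33, and −1.56 with adjusted p = 0.00167 on omitting day 5 of the Fkbp5 knockdown).

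Rps27a, which is made as a fusion with ubiquitin, had 911, 500.5 and 483 normalised CPM in the Fkbp5 knockdown, 618, 493 and 392 in the Fkbp4 knockdown and 458, 543 and 78.6 in the Control. The Control day 5 library stood far below the rest, and in it the copy Gm8430 had 159 normalised CPM against at most 2.81 elsewhere. Gene and copies together had 1048, 629.7 and 581 normalised CPM in the Fkbp5 knockdown, 692.5, 585 and 487 in the Fkbp4 knockdown and 751, 621 and 330.0 in the Control. The fall of Rps27a by day 5 was −1.20 (SE 0.39, adjusted p = 0.0229), −0.64 without the Control day 5 library and −0.85 with copies added, and it did not pass when day 0 of the Fkbp5 knockdown (−1.11) or of the Control (−1.14) was omitted. Rps12, a small-subunit protein, had 3332, 949 and 837 normalised CPM in the Fkbp5 knockdown, 1424, 778 and 525 in the Fkbp4 knockdown and 1361, 674 and 741 in the Control. Its copy Rps12-ps9 had 616, 140 and 335 in the Fkbp5 knockdown, 539.6, 132 and 16.4 in the Fkbp4 knockdown and 1.99, 8.99 and 213 in the Control. Gene and copies together had 3974 normalised CPM in the Fkbp5 knockdown, 1977 in the Fkbp4 knockdown and 1381 in the Control at day 0. The sum therefore differed between libraries as well as the split. The Fkbp5 knockdown day 0 library was the highest in Rps12 itself. Without it the difference from the Fkbp4 knockdown was 0.42 (adjusted p = 0.131), and the call was also lost without the Fkbp4 knockdown day 0 (0.61), Fkbp4 knockdown day 5 (0.65), Fkbp5 knockdown day 5 (0.88) or Control day 3 (0.74) library.

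Rpl41, the smallest ribosomal protein, had 501, 222 and 727 normalised CPM in the Fkbp5 knockdown, 273, 592 and 401 in the Fkbp4 knockdown and 375, 663 and 772 in the Control. Its day 0 libraries were not the highest, unlike those of most genes. Its copy Gm10180 is identical over 78 bases and had 884, 263 and 143 normalised CPM in the Fkbp5 knockdown, 150, 146 and 171 in the Fkbp4 knockdown and 691, 280.2 and 79.6 in the Control. With copies added, the change of Rpl41 by day 5 was −0.27 (adjusted p = 0.453), against 0.70 from the gene alone. The gene alone passed as higher when day 0 (1.17) or day 3 (0.73) of the Fkbp5 knockdown was omitted. Rps16 had, at day 5, 734 normalised CPM in the Fkbp5 knockdown, 560.5 in the Fkbp4 knockdown and 322 in the Control, whose library was the lowest of the 9. Its change by day 5 was −1.28, and −0.89 without that library.

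**Figure D5:**
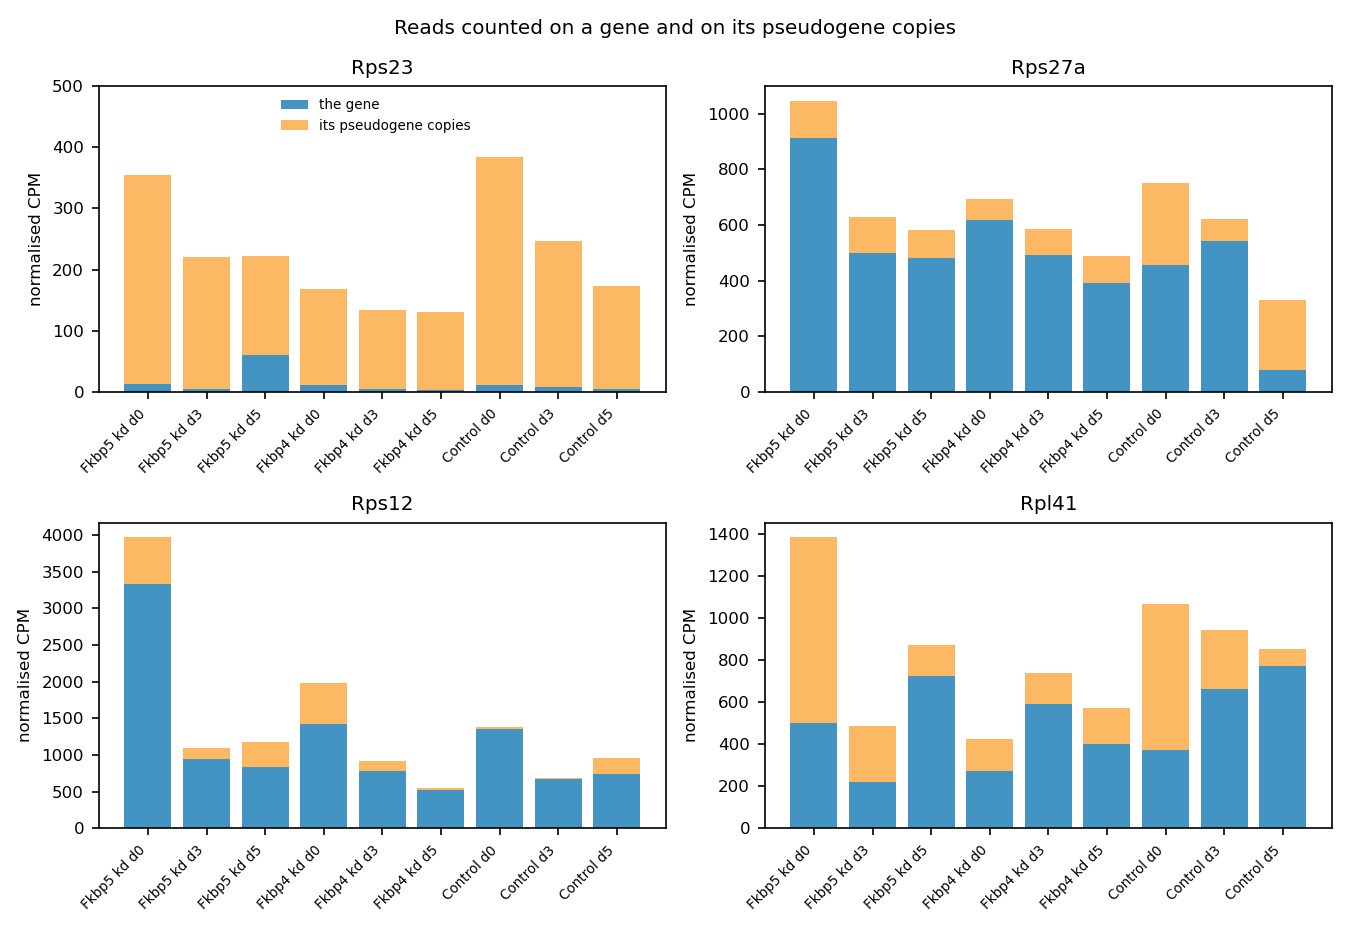
Normalised CPM counted on the gene (lower part of each bar) and on its matched pseudogenes (upper part) for Rps23, Rps27a, Rps12 and Rpl41 in the 9 libraries (horizontal axis, kd for knockdown, d for day). The split between gene and copies differs from library to library, as for Rps27a in the Control at day 5, where the copies hold more reads than the gene.

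Other parts of the translation machinery fell together with these genes. Fau and Rack1, ribosomal proteins with other symbols, were lower at day 5 than at day 0, with log2 fold changes of −1.02 and −1.09. Of 60 ribosome biogenesis genes, 42 were lower and 1 higher at day 5 than at day 0, with a median of −0.65. Over all genes tested, 28.8% were lower and 29.5% higher between these days. Nop56, a core protein of box C/D particles, stood at −2.08, Npm1 (nucleophosmin) at −1.95 and Fbl (fibrillarin, the methyltransferase of the same particles) at −1.62. Of 25 further genes with TOP messages, most of them translation factors, 18 were lower and 2 higher, among them Eef1a1 (−0.86), the main elongation factor, Pabpc1 (−0.87) and Eif4a2 (0.67). Eef2, also an elongation factor, did not pass (0.21, adjusted p = 0.123).

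Genes of the mitochondrial ribosome also fell. Of 77 genes of mitochondrial ribosomal proteins, 50 were lower at day 5 than at day 0 and none higher, with a median of −0.45, and Mrps6 stood at −1.62. Of 28 initiation factors and regulators of translation by mTORC1, 12 were lower and 8 higher at day 5, where 28.8% of all genes were lower and 29.5% higher, with the transcription factor Myc at −0.92 and Rptor, a subunit of mTORC1, at 1.10. Of 15 chaperones and import factors of ribosomal proteins, 8 were lower and 3 higher at day 5, and Grwd1, a chaperone of Rpl3, stood at −1.03. Medians over all genes tested were 0.01.

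Between the knockdowns most biogenesis genes did not pass, but their values lay mostly on the other side of 0 from the ribosomal protein genes. With the Fkbp5 knockdown set against the Fkbp4 knockdown, 47 of 60 biogenesis values were below 0. Of the ribosomal protein genes 6 of 80 were below 0. In the Fkbp5 knockdown 13 of 60 biogenesis genes were lower than in the Fkbp4 knockdown and 2 higher, with a median of −0.22, where 6.21% of all genes were lower and 7.16% higher. Polr1b (−0.78) and Polr1a (−0.45), subunits of RNA polymerase I, were among those lower. Polr1c and Polr1e of the same list were not lower on every day. At days 0, 3 and 5 Polr1c had 111.8, 44.7 and 46.9 normalised CPM in the Fkbp5 knockdown, against 86.3, 44.2 and 36.0 in the Fkbp4 knockdown. Polr1e had 31.3, 22.0 and 18.2 in the Fkbp5 knockdown, against 34.1, 18.2 and 18.3 in the Fkbp4 knockdown. Against the Control, 0 biogenesis genes passed in either knockdown with edgeR's test. At an unadjusted p under 0.05 there were 12 of 60 for the Fkbp5 knockdown and 8 of 60 for the Fkbp4 knockdown. Over all 12498 genes tested there were 1985 and 2068. Of the mitochondrial ribosomal proteins, 9 were higher in the Fkbp5 knockdown than in the Fkbp4 knockdown and 1 lower. Transcripts over 4000 bases had a median of −0.10 in this comparison, and those of up to 600 bases 0.33.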

How the data were processed

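Polyadenylated RNA of 9 C2C12 libraries was sequenced, and the authors deposited raw read counts per gene. The submitters' processing notes name CASAVA 1.8, HISAT2 2.0.2, Subread, featureCounts 1.4.6 and mm10. Handling of reads that fit several places, the strand setting and the annotation release are not given in the sources used here. Total counts were 3932372 to 5568486 per library. IDs were matched to GENCODE mouse release 21 (47309 of 47728).

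The members and lists were chosen with earlier results of these data known. Genes kept by edgeR's filterByExpr (12498) were tested with edgeR 4.0.16 (R 4.3.3; TMM, quasi-likelihood, genotype and day as additive terms, 4 residual degrees of freedom) with Benjamini-Hochberg adjustment over all of them, called at 0.05; scripts were tested on simulated data. With 1 library per genotype and day, days stand in for replicates, and p-values measure the spread between these libraries. Pseudogene copies were matched with blastn 2.17.0 at 80% identity over at least 50% of the length. DESeq2 1.42.0 and limma 3.58.1 were alternatives. Named genes were up to the 10 largest called changes per direction with a mean of at least 5 CPM, the stalk, 5S-particle and paralogue genes, Rps6, Rpsa, Rps27a, the highest and lowest levels and the most shared sequences; genes named because they did not pass or lay near the threshold, Rps23 copies included, were chosen after their values were seen. Values of some single genes are not reported here.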

Additional observations from a re-analysis of the deposited data

How the results depend on the processing

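No direction of a called result reversed. Medians and counts of called genes are given for the Fkbp5 knockdown against the Control (0 called), the Fkbp4 knockdown against the Control (1), the Fkbp5 knockdown against the Fkbp4 knockdown (25), day 3 and day 5 against day 0 (70 and 77), day 5 against day 3 (3) and both interactions (0 each). Leaving out 1 library gave, in that order, 0 to 1, 0 to 6, 6 to 38, 61 to 72, 72 to 76, 0 to 9, and 0 to 1 for each interaction. The medians then ranged over 0.01 to 0.17, −0.29 to −0.14, 0.24 to 0.42, −0.79 to −0.58, −1.05 to −0.85 and −0.31 to −0.17. With total counts alone, 1 gene was called for the Fkbp5 knockdown against the Control and 6 for day 5 against day 3. Without the filter on low counts the counts were 6, 15 and 38 for the genotype comparisons, 20 for day 5 against day 3, and 2 and 1 for the Fkbp5 and Fkbp4 interactions. DESeq2 called 3 and 7 against the Control, 6 for day 5 against day 3 and 1 for the Fkbp4 interaction, and limma-voom called 3 for the Fkbp4 knockdown against the Control. With genotype or day as the only term, 0 were called for the Fkbp4 knockdown against the Control, between the knockdowns and for day 5 against day 3. With nuclear protein-coding genes only, 4 and 5 were called for the Fkbp4 knockdown against the Control and day 5 against day 3, and with pseudogene reads added 4 for the Fkbp4 knockdown against the Control. Among genes sharing at most 20% of their words, fewer by construction, 2 were called for the Fkbp4 knockdown against the Control, 10 between the knockdowns and 25 for each of days 3 and 5 against day 0. With the length trend removed, 1 was called for the Fkbp5 knockdown against the Control, 8 between the knockdowns and 5 for day 5 against day 3, and medians were −0.03 for the Fkbp4 knockdown against the Control, 0.11 between the knockdowns and −0.72 for day 5 against day 0. Without day 0 or day 5, 5 or 4 were called between the knockdowns, and without day 3 or day 5, 0 for the Fkbp4 knockdown against the Control. For day 5 against day 3, 0 were called without the Control or without the Fkbp4 knockdown libraries, and 9 without those of the Fkbp5 knockdown. The median share of reads, 5.29%, was 5.54% without mitochondrial reads and 5.94% with copies added. The causes of these shifts were not tested. Shares of all genes called are not given for these alternative settings, so their counts cannot be set against such a share. Interactions could not be estimated where a needed day 0 library or day was left out. No paired analysis was possible because replicate numbers pair nothing with 1 library per genotype and day; the day term already sets genotypes against each other within days. Depth limits the genes with few own reads, such as Rpl29.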
